A study of Mus musculus with 5 samples.

Results

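The serum response factor gene Srf and the genes of 5 of its cofactors were followed in mouse glioma cells with and without insulin-like growth factor 1 (IGF-1). The cofactor genes were Mrtfa and Mrtfb, of the myocardin-related transcription factors (MRTF), and Elk1, Elk3 and Elk4, of the ternary complex factors. All 6 were found by symbol among the 29495 genes counted in every library. The family was chosen by the CPM (a gene's counts relative to the scaled total of its library) of its genes in this same contrast, in which Srf was already known to be higher. The values of the 6 genes are therefore a description, with their error and without a printed p-value. Calls by the test are counted for them below, but nothing is read from those counts. Srf was 1.87-fold higher with IGF-1, whereas the fitted differences of the 5 cofactor genes lay between 0.946-fold and 1.16-fold.

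SRF is a MADS-box protein that binds a short AT-rich element, the CArG box, in the promoters of immediate early genes and of genes for actin and its partners. It works with a pair of cofactor families that compete for the same surface. MRTF proteins are held in the cytoplasm by monomeric actin and enter the nucleus when actin polymerises. Ternary complex factors are ETS-domain proteins that sit beside SRF on DNA and are phosphorylated by ERK. In glia and neurons SRF is known for its part in cytoskeletal and activity-dependent gene expression, and the Srf promoter itself carries CArG boxes.

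The cells were glioma cells of genotype p53-/-;NF1-/-;tdTomato+/-, taken from a mouse tumor model of mixed CD-1 and C57BL/6 background. They were grown with olfactory bulb (OB) neurons of C57BL/6 pups of postnatal day 2 to 3 and then sorted by their red tdTomato fluorescence. The control group had 2 libraries of such co-cultured cells (replicates 1 and 2), and the IGF-1 group had 3 libraries of co-cultured cells kept overnight with 20 ng/mL IGF-1 (replicates 3, 4 and 5). Both groups lacked p53 and NF1, and the plating medium of the neurons held insulin and serum. The driver of the gene deletions and the number of tumors are not given in the sources used here. Whether each library came from its own culture or animal is not stated in the labels. All errors and p-values therefore rest on the spread among these 5 libraries, and that spread may be technical.

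Libraries held 16944315 to 20144181 counts. IGF-1 replicate 5 stood apart: the SD of the log2 difference over 9779 genes of at least 10 CPM, with libraries scaled by TMM factors, was 0.223 between it and either other IGF-1 library, against 0.111 between those others and 0.116 between the controls. Its log2 difference from the controls also went up by 0.0996 per doubling of transcript length, against 0.00759 and 0.0131 in replicates 3 and 4. Results are therefore also given without replicate 5. Markers of the labelled cell type were abundant, with Pdgfra at 9003 to 12856 counts and Cspg4 at 8035 to 15526. Most of those of other cells were low: the neuron genes Rbfox3 and Snap25 had 0 to 1 and 9 to 21 counts, the microglia genes Ptprc and Csf1r 1 to 7 and 3 to 5, the endothelial genes Cdh5 and Pecam1 0 to 3 and 6 to 23, and the mural genes Myh11 and Des 1 to 6 and 3 to 16. The neuron gene Syt1 was higher, at 81, 94, 94, 105 and 232 counts in replicates 1 to 5, with its highest level in IGF-1 replicate 5. The fibroblast genes Col1a1 and Col1a2 had 66 to 98 and 43 to 89 counts. In RNA of a whole sorted population, fewer cells of a type and less RNA per cell cannot be told apart.

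Srf, the DNA-binding partner of all the cofactors, was at 37.0 and 35.6 CPM in control replicates 1 and 2. With IGF-1 it was at 68.9, 65.4 and 68.9 CPM in replicates 3, 4 and 5. All 3 treated libraries lay above both controls, and replicate 5 lay with the other treated libraries. The means were 36.3 ± 0.994 CPM (SD, n = 2) and 67.7 ± 1.99 CPM (SD, n = 3). The lowest treated library was 1.77 times the highest control, and the highest was 1.94 times the lowest control. Srf was read with 603 to 1408 counts per library, so counting error alone was 2.67% to 4.07%. The coefficients of variation, 2.74% among the controls and 2.93% with IGF-1, were of that size. The log2 difference was 0.90 with an SE of 0.07 and a 95% interval of 0.74 to 1.06, and without replicate 5 it was 0.89. In the annotation of build GRCm38, 0 other genes overlapped exons of Srf, while those of Elk1 and Elk4 were overlapped over at most 1.62% of their length by any 1 gene.

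**Figure D1:**
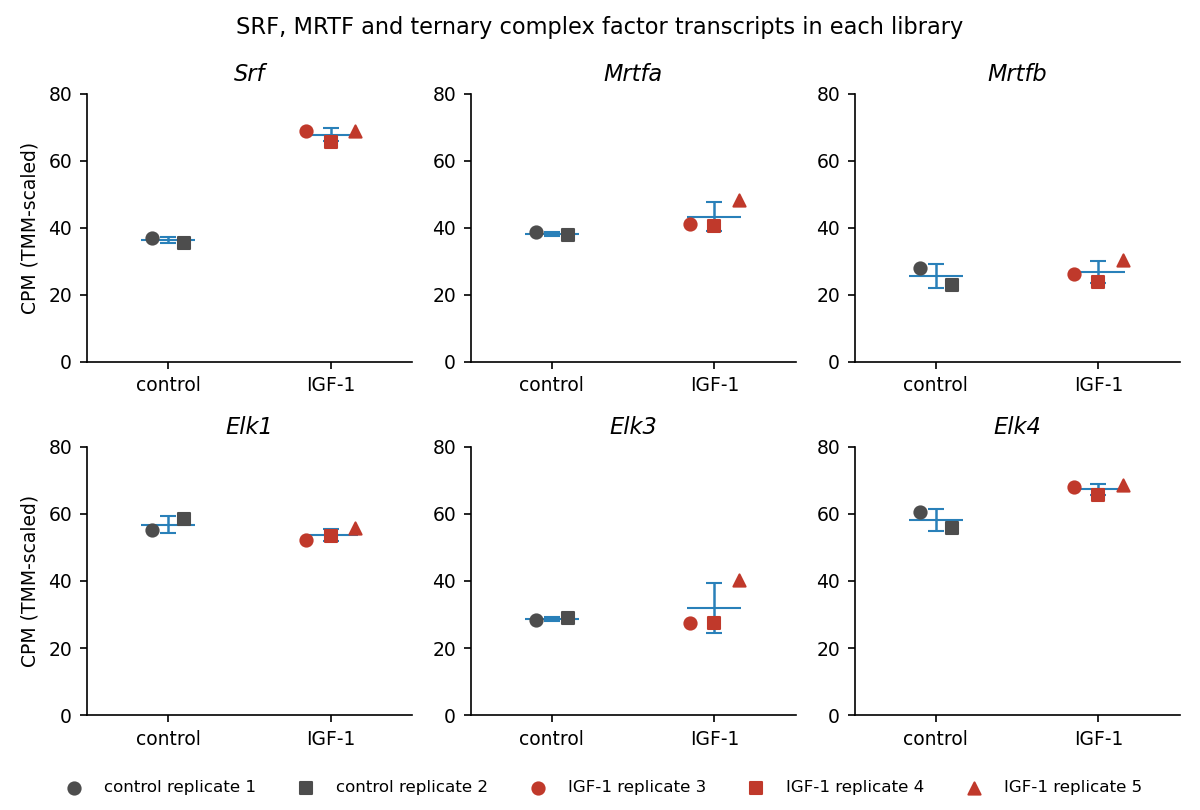
CPM of the 6 genes in each library (points), with the group mean and SD in blue, for the 2 control and 3 IGF-1 libraries on axes that start at 0. Srf is at 65.4 to 68.9 CPM with IGF-1 and at 35.6 to 37.0 in the controls. IGF-1 replicate 5 is the highest treated library for all 6 genes, by the most for Mrtfa, Mrtfb and Elk3.

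The promoter of Srf is shown because SRF is known to bind its own gene, the gene of the family with the largest difference here. The window runs from 250 bases before to 50 bases after the transcription start site, at chr17:46556113-46556412 on the minus strand of GRCm38.p6, from RefSeq. Capitals mark matches to the CArG box and to the ETS core CCGGAA, each searched on both strands.
Srf: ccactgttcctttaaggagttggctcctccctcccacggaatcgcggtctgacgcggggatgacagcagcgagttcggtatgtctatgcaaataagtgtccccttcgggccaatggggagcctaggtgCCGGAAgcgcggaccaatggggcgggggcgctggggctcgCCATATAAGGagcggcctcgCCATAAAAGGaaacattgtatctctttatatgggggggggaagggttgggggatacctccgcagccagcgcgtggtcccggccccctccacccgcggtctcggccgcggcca

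The window held 2 CArG matches, from -82 to -73 and from -62 to -53 relative to the start site. Its ETS core, a sequence that ternary complex factors can recognise, lay upstream of both, from -122 to -117. It also held 1 Sp1 box (GGGCGG) and 2 CCAAT boxes (CCAAT), and no match overlapped another. Of 32851 promoter windows of this length, 1.63% held a CArG match, 0.0183% held 2 or more, and 14.9% held the ETS core. Windows were found for all 6 genes, 11 in total over their start sites. The other 10, those of Mrtfa, Mrtfb, Elk1, Elk3 and Elk4, held 0 CArG matches. The ETS core was also present in windows of Mrtfb and Elk4. These matches describe letters in the window and do not show binding.

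**Figure D2:**
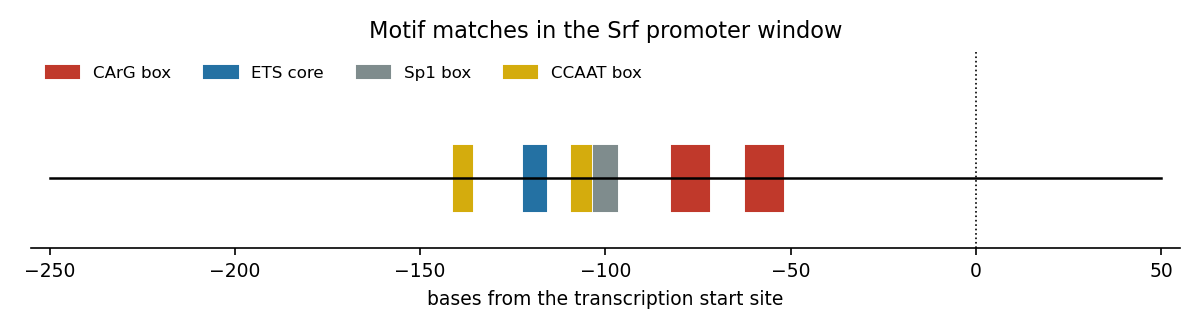
Motif matches (coloured boxes) in the Srf promoter window, with the position in bases from the transcription start site (dotted line) on the x axis. The 2 CArG matches lie nearest to the start site, between -82 and -53, downstream of the ETS core.

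The MRTF genes encode the actin-regulated coactivators. Mrtfa was at 38.6 and 37.8 CPM in control replicates 1 and 2, and at 41.2, 40.4 and 48.4 CPM in IGF-1 replicates 3, 4 and 5. The groups did not overlap, but the lowest treated library was only 1.05 times the highest control, and replicate 5 was 1.19 times the mean of replicates 3 and 4. The log2 difference was 0.18 (SE 0.10, 95% interval -0.03 to 0.39), and 0.09 without replicate 5.

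Mrtfb, the closest relative of Mrtfa, was at 28.1 and 23.0 CPM in control replicates 1 and 2, and at 26.2, 23.8 and 30.3 CPM in IGF-1 replicates 3, 4 and 5. The groups overlapped, and the controls differed from each other as much as the treated libraries did. The coefficients of variation were 14.1% and 12.3%, against a counting error of at most 5.06%. The log2 difference was 0.07 (SE 0.13, 95% interval -0.21 to 0.35). It was -0.03 without IGF-1 replicate 5 and -0.07 without control replicate 2, so its sign changed with either library left out. Exons of Mrtfa and Mrtfb overlap those of other genes on the opposite strand over 0.164% and 1.8% of their length in GRCm38.

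Elk4, also called SAP-1, is the ternary complex factor gene with the largest fitted difference. It was at 60.4 and 55.8 CPM in control replicates 1 and 2, and at 67.9, 65.5 and 68.5 CPM in IGF-1 replicates 3, 4 and 5. The 3 treated libraries lay above both controls, with the lowest 1.08 times the highest control. The means were 58.1 ± 3.29 and 67.3 ± 1.55 CPM (SD, n = 2 and 3), a log2 difference of 0.21 (SE 0.07, 95% interval 0.06 to 0.37). The size depended on the control chosen: it was 0.27 without control replicate 1 and 0.16 without control replicate 2, and it was 0.20 without IGF-1 replicate 5.

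Elk1, the founding ternary complex factor and a direct ERK substrate, was at 55.1 and 58.5 CPM in control replicates 1 and 2, and at 52.2, 53.4 and 55.7 CPM in IGF-1 replicates 3, 4 and 5. The groups overlapped through replicate 5, which was above control replicate 1. The log2 difference was -0.08 (SE 0.07, 95% interval -0.24 to 0.08), and Elk1 was the only member whose fitted difference was below 0. Without replicate 5 it was -0.11.

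Elk3, also called Net, acts as a repressor until it is phosphorylated. It was at 28.3 and 29.1 CPM in control replicates 1 and 2, and at 27.4, 27.6 and 40.4 CPM in IGF-1 replicates 3, 4 and 5. Replicates 3 and 4 lay below both controls, and replicate 5 was 1.47 times their mean. The log2 difference was 0.15 (SE 0.16, 95% interval -0.20 to 0.50) with all libraries and -0.06 without replicate 5, so that 1 library set its sign. Over 2449 genes of 10 CPM or more and of like length (within 20% of 4212 bases), the median log2 difference of replicate 5 from the controls was 0.0388, while that of Elk3 was 0.49. With an offset for the length trend of each library the log2 difference of Elk3 was 0.12. The summed level of 6 neuron markers was 12.6 CPM in replicate 5, 6.39 and 6.72 in replicates 3 and 4, and 5.89 and 7.02 in the controls, and its part in the Elk3 value was not tested. Of these markers Rbfox3 was at 0 counts in replicate 5, and 232 of the neuron marker counts there were those of Syt1. Exons of Elk3 overlap those of Cdk17, on the opposite strand, over 6.95% of their length.

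In the fit across all 15919 genes, edgeR's quasi-likelihood test called 1 of the 6 genes higher (Srf) and 0 lower, where 0.685% of all tested genes were called higher and 0.339% lower. In either direction 1.02% were called. DESeq2 and limma-voom likewise called 1 and 0, where they called 191 higher and 89 lower, and 83 and 49, of all tested genes. By unadjusted p (below 0.05) edgeR had 2 higher and 0 lower of the 6, where 7.1% and 5.57% of all tested genes were. Without IGF-1 replicate 5, 2 were called higher, Srf and Elk4, against 5.49% of all genes, and 0 lower, against 3.65%. The call of Srf rests on both controls. A single control has no spread of its own, and the part of this in the call was not tested. Without control replicate 1 or 2 the log2 difference of Srf was 0.93 and 0.87. The treated libraries lay wholly above the controls for 3 of the 6 genes and wholly below for 0, where 16.2% and 16.9% of all tested genes did so. The genes were chosen with this contrast known, so nothing is read from these counts.

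**Figure D3:**
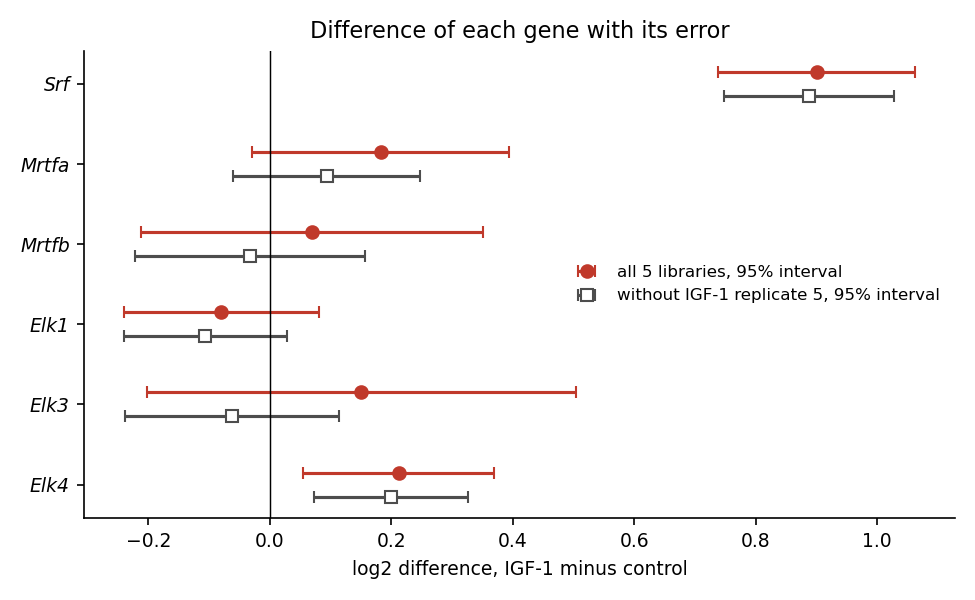
Log2 difference (IGF-1 minus control) of the 6 genes, with 95% intervals, for all 5 libraries (filled circles) and without IGF-1 replicate 5 (open squares). Srf lies at 0.90 and 0.89, and the cofactor genes lie between -0.11 and 0.21.

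Because genes of different length gather different counts, levels were compared as CPM per kilobase of the principal transcript (2616 bases for Srf, 3548 to 8295 for the others). In the controls the level per kilobase was 16.0 ± 0.684 for Elk1, 13.9 ± 0.38 for Srf, 13.1 ± 0.742 for Elk4, 9.20 ± 0.133 for Mrtfa, 6.82 ± 0.127 for Elk3 and 3.08 ± 0.434 for Mrtfb (SD, n = 2). Srf and Elk4 overlapped in that order. With IGF-1 Srf was highest, at 25.9 ± 0.76, followed by Elk4 at 15.2 ± 0.35 and Elk1 at 15.2 ± 0.504, which overlapped. Mrtfa followed at 10.4 ± 1.06, Elk3 at 7.55 ± 1.77 and Mrtfb at 3.23 ± 0.397 (SD, n = 3), and the values of Mrtfa and Elk3 did not overlap. The order depends on the length used: with the union of all annotated exons, Srf led also in the controls, at 12.5 against 10.6 for Elk1.

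Ratios of Srf to its cofactors at the transcript level mostly restate the difference of Srf, which was known when the family was chosen. They are given as a description. The ratio of Srf to the sum of Mrtfa and Mrtfb, per kilobase, was 1.115 and 1.145 in the controls, against 2.01, 1.99 and 1.72 with IGF-1. Its lowest treated value was in replicate 5, where Mrtfa and Mrtfb were highest. The ratio of Srf to the sum of the 3 ELK genes was 0.394 and 0.378 without IGF-1 and 0.72, 0.687 and 0.647 with it. Mrtfa was 2.74 to 3.39 times as abundant per kilobase as Mrtfb over the 5 libraries, with overlapping groups. With the union of exons as length this ratio was 2.02 to 2.49. On that length the mean ratio of Srf to the MRTF sum was 1.38 without and 2.34 with IGF-1, and that of Srf to the ELK sum 0.484 and 0.854. Of the ELK sum, Elk1 made 43.3% and 45.9% in the controls, above its 40.2%, 41.4% and 38.5% with IGF-1. The share of Elk4 was 38.0% and 35.0% in the controls, and 41.9%, 40.6% and 37.9% in the treated libraries, and here the groups overlapped through replicate 5. The third cofactor of the MRTF family, myocardin, is made mainly in heart and smooth muscle, and its gene Myocd had 0 to 1 counts in each library.

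**Figure D4:**
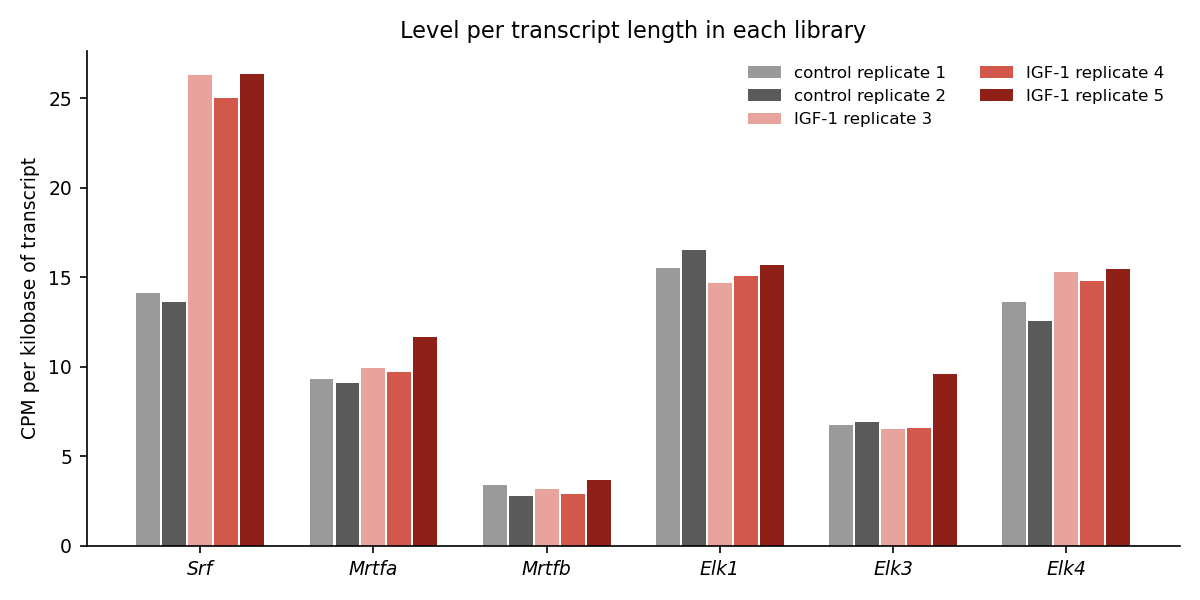
Level of each gene per transcript length (CPM per kilobase, bars from 0) in the 2 control libraries (grey) and the 3 IGF-1 libraries (red). Srf is above Elk1 and Elk4 in every IGF-1 library, and Elk3 is high in IGF-1 replicate 5 alone.

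Genes were also ranked by how closely their log2 CPM followed that of Srf over the 5 libraries, among 9506 others with a mean of at least 10 CPM. The 6 closest were Pkd2l2, Ipo13, Fam20c, Dicer1, Pfkfb3 and Champ1, with Pearson r of 0.9982 to 0.9996. Of these Pfkfb3, whose product makes the activator of phosphofructokinase, had a difference like that of Srf, from 29.5 and 28.1 CPM to 51.6, 51.6 and 52.5. The others differed far less, with log2 differences of 0.18 to 0.27. Ipo13, an importin gene, went from 188.8 and 186.3 to 212.5, 210.7 and 213.4 CPM. The 3 most opposite were Tsc22d1, Ppp4r3b and Gmppa (r of -0.9984 to -0.9977). The pair closest to Mrtfa was Rhoa and Pou4f1, to Mrtfb Nr4a2 and Foxp1, to Elk1 Phka1 and Tes, and to Elk3 Rtn1 and Nckap5. Among the 6 genes themselves Elk4 was closest to Srf (r = 0.949) and Elk1 was most unlike it (r = -0.704). With 5 libraries in 2 groups, such values mostly restate the group difference and the place of replicate 5.

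The other MADS-box genes and partners of SRF formed a list of 13 genes, of which 10 passed the filter on low counts. By edgeR, with p-values adjusted by Benjamini-Hochberg over all tested genes, 1 rose and 0 fell (0.685% and 0.339% of all tested genes). At an unadjusted p under 0.05 there were 1 and 1 (7.1% and 5.57% of all tested genes), and the median log2 difference was 0.05 (-0.008 over all genes tested). DESeq2 called 1 and 0 (191 and 89 of all tested genes), and limma-voom called 0 (83 and 49 of all). The gene that rose was Mef2d, a MADS-box relative of Srf, from 77.0 and 78.2 CPM to 97.8, 96.4 and 107.9 CPM (log2 0.38, SE 0.07, adjusted p = 0.0442 by edgeR). All treated libraries lay above both controls. The call was lost without control replicate 1, control replicate 2, IGF-1 replicate 3 or IGF-1 replicate 4, and with total counts in place of scaled ones, limma-voom or an offset for GC content. Its log2 difference was 0.321 to 0.408 over the 12 alternatives. Without IGF-1 replicate 3 or 4, 38 and 53 of all tested genes were called, against 163 with all 5 libraries. Without IGF-1 replicate 5, Mef2d rose and Mef2b, another relative, fell (adjusted p = 0.0481 by edgeR), from 4.62 and 4.54 CPM in the controls to at most 3.08 CPM in the treated libraries. In that setting 5.49% of all genes rose and 3.65% fell.

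Of genes of the ERK branch and its coregulators, 23 were tested. Of these, 0 were called by edgeR, DESeq2 or limma-voom, which called 163, 280 and 132 of all 15919 genes. Unadjusted p by edgeR was below 0.05 for 1 higher and 1 lower, near the shares among all tested genes (7.1% and 5.57%), and the median log2 difference was 0.03. Without IGF-1 replicate 5 edgeR called 0, with 3 higher and 2 lower unadjusted, where 11.6% and 9.64% of all genes were. The most abundant were the corepressor gene Ncor1, at 348, 340, 350, 343 and 350 CPM over replicates 1 to 5 (log2 0.01), and the ribosomal S6 kinase gene Rps6ka3 (log2 0.03).

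Among 36 genes known as MRTF-SRF targets, which encode actin, its partners and matricellular proteins, 30 passed the filter. Of these 4 rose and 0 fell by edgeR, DESeq2 and limma-voom, where edgeR called 0.685% of all tested genes higher and 0.339% lower. Of all 15919 tested genes DESeq2 called 191 higher and 89 lower, and limma-voom 83 and 49. In the list there were 9 and 2 by edgeR's unadjusted p (under 0.05), against 7.1% and 5.57% of all tested genes. The median log2 difference was 0.13, and 23 of 30 were above 0, against 7687 of 15919 among all genes tested. The list was drawn up with results of these libraries known, so its direction is not independent evidence. The muscle-type targets Acta2, Tagln and Cnn1 had 0 to 10 counts per library and were not tested.

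Zyx, the gene of zyxin at focal adhesions, rose from 100.8 and 93.7 CPM to 132, 135 and 144 CPM (log2 0.49, SE 0.07, adjusted p = 0.0123 by edgeR). Vcl, the gene of vinculin, which ties integrins to actin, rose from 95.9 and 98.3 to 123, 127 and 127 CPM (log2 0.37, SE 0.06, adjusted p = 0.0217 by edgeR). Lima1, whose product bundles actin filaments, rose from 478 and 450 to 629, 626 and 756 CPM (log2 0.53, SE 0.09, adjusted p = 0.0261 by edgeR). Wdr1, a cofactor of cofilin in filament disassembly, rose from 237 and 242 to 302, 308 and 298 CPM (log2 0.34, SE 0.06, adjusted p = 0.0306 by edgeR). For each of the 4 genes all treated libraries lay above both controls. Their calls rest on both controls. A single control has no spread of its own, and the part of this in the calls was not tested. Over the 12 alternatives the log2 differences were 0.439 to 0.546 for Zyx and 0.343 to 0.393 for Vcl. They were 0.435 to 0.578 for Lima1 and 0.326 to 0.353 for Wdr1. Without IGF-1 replicate 3 or 4 Zyx alone was called. In those settings 38 and 53 of all tested genes were called, against 163 with all 5 libraries. Without IGF-1 replicate 5, 9 rose and 2 fell, while the calls among all genes went from 163 to 1424 (5.49% higher and 3.65% lower). Actb, Actg1, Flna, Myh9 and Tpm4, of actins, filamin, myosin and tropomyosin, joined the rises. Ccn1, a matricellular gene, and Filip1l fell.

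Promoter windows were found for 30 of the 36 genes, and 7 of those (23.3%) held a CArG match in at least 1 window. The share was 1.81% of all genes with a window and 1.58% of the tested ones. The list was made of known SRF targets, so its higher share describes the list and is not a result of these libraries. Among the 4 genes that rose, Vcl and Lima1 held one. Both are shown with 8 bases on each side, from GRCm38.p6, with the CArG match in capitals. The Vcl site is at chr14:20929163-20929188 on the plus strand and the Lima1 site at chr15:99820179-99820204 on the minus strand.
Vcl: cactatgcCCTTATAAGGagcgcccc
Lima1: cactttgtCCTTATAAGGctatcctg

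The matched 10 bases are the same in both, and differ from either match in the Srf window. Filip1l and Cnn2 hold these 10 bases too, with log2 differences of -0.34 and 0.31 that did not pass the test (adjusted p = 0.0972 and 0.587 by edgeR). These 2 genes were named after their values were seen, so nothing on direction is read from them. Among genes with a window, 7 of the 84 called higher (8.33%) held a CArG match. Of the 39 called lower 0 did, and of all tested genes 1.58% did. Srf, Vcl and Lima1 are among those called higher. A relation between the match and the direction was not tested.

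Immediate early genes known as targets of the ternary complex factors moved in both directions. Of 18 tested, 3 rose and 2 fell by edgeR, DESeq2 and limma-voom, beside 0.685% and 0.339% of all tested genes by edgeR. DESeq2 called 191 higher and 89 lower of all tested genes, and limma-voom 83 and 49. Unadjusted, 5 and 4 of the 18 had a p under 0.05 by edgeR (7.1% and 5.57% of all tested genes), and the median log2 difference was 0.02. Klf10, a TGF-beta-inducible repressor, rose from 50.8 and 52.4 to 76.2, 83.0 and 77.7 CPM (log2 0.61, SE 0.07, adjusted p = 0.0054 by edgeR). Mcl1, an anti-apoptotic BCL2 relative, rose from 105 and 111 to 142, 135 and 140 CPM (log2 0.36, SE 0.06, adjusted p = 0.0279 by edgeR). Egr3, an inducible zinc finger factor, rose from 15.7 and 17.9 to 45.6, 43.1 and 36.4 CPM (log2 1.31, SE 0.12, adjusted p = 0.00206 by edgeR). Its relative Egr1 fell from 328 and 338 to 208, 229 and 184 CPM (log2 -0.68, SE 0.09, adjusted p = 0.0067 by edgeR). Junb, of the AP-1 family, also fell (log2 -0.57). The calls in this list also rest on both controls. Over the 12 alternatives the log2 differences were 0.576 to 0.64 for Klf10, 0.331 to 0.398 for Mcl1 and 1.22 to 1.41 for Egr3. They were -0.76 to -0.605 for Egr1 and -0.67 to -0.473 for Junb. Without IGF-1 replicate 3, 2 rose and 1 fell, Egr3, Klf10 and Egr1. In that setting 29 of all tested genes rose and 9 fell. Mcl1 and Junb were not called there. Without replicate 4, 2 rose and 2 fell, and Mcl1 was not called, where 35 and 18 of all tested genes rose and fell. Without replicate 5, 5 rose and 4 fell, where 5.49% and 3.65% of all genes did so. Egr4 and Nr4a1 joined the rises and Fos and Ier3 the falls.

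**Figure D5:**
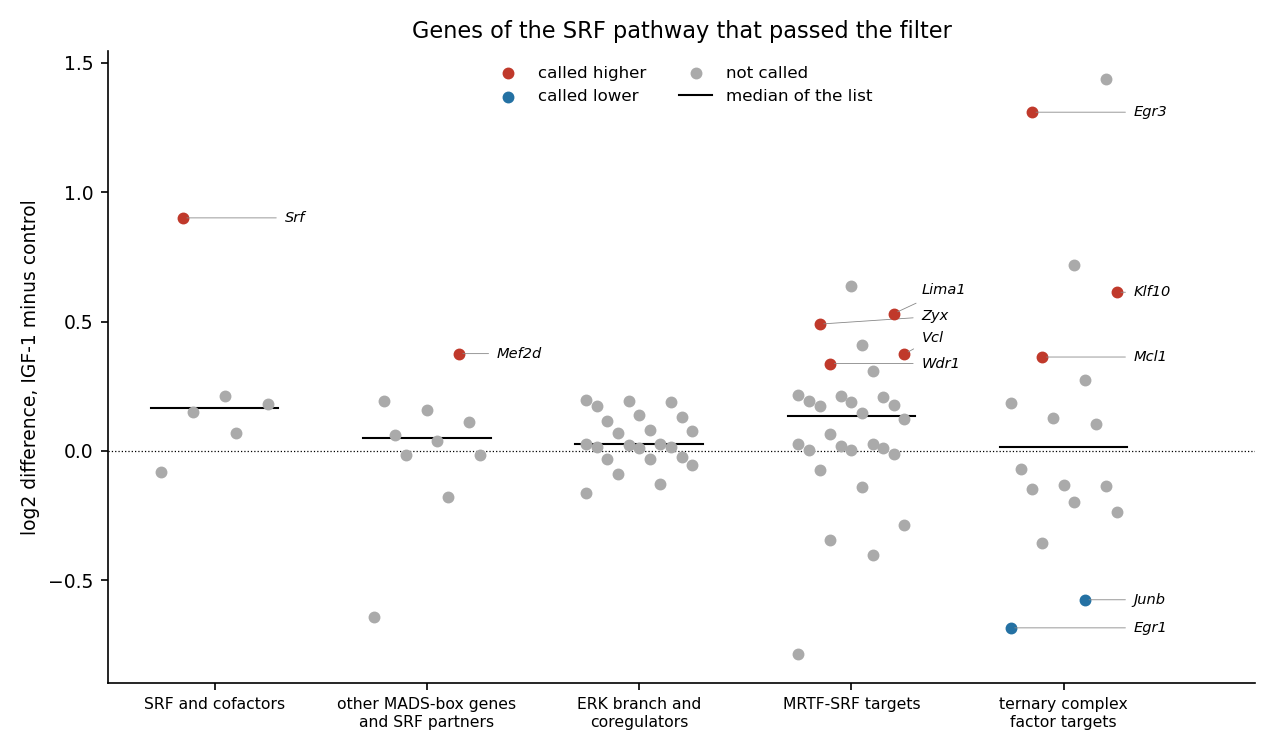
Log2 difference (IGF-1 minus control) of each tested gene in 5 lists of the SRF pathway, with called genes coloured and named and a bar at the median of each list. In the MRTF-SRF target list 4 genes are called higher and 0 lower, and in the ternary complex factor target list 3 are called higher and 2 lower.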

How the data were processed

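The authors deposited raw counts of reads per gene symbol, 1 table per library. Build GRCm39 is named in the submitters' processing notes, along with featureCounts 2.0.1, STAR 2.7.9a, DESeq2 1.28.1 and cutadapt 3.4, without their roles. The annotation and the use of strand and of multiply mapped reads are not given in the sources used here, so reads of overlapping genes may be shared.

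Groups came from the titles. Genes were filtered with filterByExpr (minimum count 10, minimum total 15), scaled with TMM factors and fitted with edgeR 4.0.16 in R 4.3.3 by its quasi-likelihood F-test (two-sided), with Benjamini-Hochberg adjustment over 15919 genes and a threshold of 0.05. The SE is the log2 difference divided by the square root of F, and 95% intervals use the fit's degrees of freedom. CPM are TMM-scaled. Levels per length used principal transcripts of GENCODE vM21 (GRCm38), matched for 97.5% of tested genes. The procedure was also run on simulated counts with the same spread in every library. That run does not cover a library that stands apart, as IGF-1 replicate 5 did.

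The members and lists were chosen with earlier results of these data known. Named from each list were up to 4 called genes with the smallest adjusted p, or the 2 with the most counts where none was called, and genes most like each member. Of these, 1 list and 1 such pair are not reported here. Genes called only without IGF-1 replicate 5, Junb, the muscle-type targets, and genes sharing a CArG match were named after their values were seen. Alternatives were RLE factors, total counts, no filter, DESeq2 1.42.0, limma-voom (limma 3.58.1), each library left out, and, chosen after seeing the data, offsets for transcript length and GC content and the union of exons as length. Depth was 16944315 to 20144181 counts, and counting errors cover counting only.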

Additional observations from a re-analysis of the deposited data

How the results depend on the processing

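The log2 difference of Srf kept its direction under all 12 alternatives, between 0.80 and 0.93, with 0.80 under the offset for GC content. Those of Mrtfa and Elk4 stayed above 0 and that of Elk1 below 0 in all 12. Mrtfb and Elk3 were below 0 in 2 and 1 of the 12. Elk4 ranged from 0.16 to 0.27 with 1 library left out. The number of genes called, 163 of all tested, was 606 with no filter, 280 with DESeq2 and 251 with the length offset, and 2 to 1424 with 1 library left out. Among MRTF-SRF targets it was 4, or 9 with no filter, and 0 to 11 with 1 library left out. Among ternary complex factor targets it was 5, or 8 with no filter, and 0 to 9 with 1 left out. Among other SRF partners it was 1, and 0 with total counts, limma-voom or the GC offset, and 0 to 2 with 1 left out. Of the 6 genes closest to Srf, 3 were also at the highest Spearman rank correlation, a value that 313 genes shared. With 1 control left out, the spread of the remaining one is taken from the IGF-1 libraries. No paired analysis was possible because the groups share no replicate number. The causes of these changes were not tested, except that leaving out a library leaves fewer samples.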
